A study of Mus musculus with 3 samples.

Results

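Costimulatory and checkpoint ligands are the surface proteins with which a macrophage tells a T cell whether an antigen should be met with activation or with restraint. The 8 genes described here were chosen by name as such ligands and as markers of activated antigen-presenting cells: Cd40, Cd80, Cd86, Icosl, Tnfsf9, Cd274, Pdcd1lg2 and Cd83. They are 8 of 22350 protein-coding genes on chromosomes 1 to 19 and X in the GENCODE M1 annotation of the mm9 mouse genome. No measured value was used as a rule to pick them, but earlier results of these data were known when they were chosen. At each gene the Ser5-phosphorylated form of RNA Polymerase II (Ser5-P Pol_II) was measured by ChIP-Seq, in which DNA bound by an antibody is sequenced from cross-linked chromatin.

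The cells were macrophages grown from the bone marrow of female Fvb/Hsd mice (Fvb in the labels) in medium conditioned by L929 cells, and they were used on day 7. One Ser5 library came from untreated cells and 1 from cells kept for 2 h with 10 ng/ml LPS, a bacterial cell wall component that activates macrophages through a Toll-like receptor. The remaining library was input DNA from untreated cells, so the LPS-treated cells have no input of their own here. Each condition had 1 library, and the number of mice and cultures behind it is not given in the sources used here. Differences therefore have no replicate check, no test was made, and all intervals are 95% intervals for counting error alone.

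Ser5 phosphorylation marks the polymerase as it leaves the promoter and starts to transcribe, and the mark persists on the enzyme while it moves along the gene. A gene with Ser5-P Pol_II at its transcription start site (TSS) only differs in state from a gene with the mark along its body. T cells need a costimulatory signal beside the antigen receptor: Cd80 and Cd86 give it through Cd28, Icosl through Icos and Tnfsf9 through Tnfrsf9. Cd274 (PD-L1) and Pdcd1lg2 (PD-L2) give an inhibitory signal through Pdcd1. Cd40 works in the other direction, as the receptor with which the macrophage receives the Cd40lg signal of a helper T cell. Resting macrophages are known to carry few of these proteins, and microbial products are known to raise several of them. In a population of cells, more cells with polymerase on a gene and more polymerase per cell cannot be told apart.

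Tags (aligned reads) were counted by their 5′ end and are given as TPM, the share of the tags of a library scaled to 1000000, and for densities divided by length in kb. The untreated Ser5 library held 7616771 tags, the LPS library 6249819 and the input 7533308. The tags are 45, 30 and 36 bases long in these files, whereas the study's methods give 30 bases for the untreated and 45 for the LPS library. As a check of the labels, 8 of 8 known LPS response genes were at least 2 times higher in the library labelled LPS, by 6.17 to 396 times over the gene body, among them Ccl5, Tnf and Il6. Of 8 housekeeping genes, 0 passed that size, with ratios between 0.631 and 1.31. Peaks lay in the TSS window of 8 of 8 macrophage markers in both libraries. Over the 8 dendritic cell markers, whose cells are rich in Cd80 and Cd86, the summed TSS windows held 48 and 30 Ser5 tags against 76 of input, and 0 of 8 had a peak in that window. Over the gene body Xcr1 had 2 peaks in each library and Zbtb46 1 peak in untreated cells. For the markers of T cells, B cells, neutrophils and fibroblasts the sums were 18, 37, 115 and 9 tags in untreated cells and 23, 28, 154 and 16 after LPS, against 71, 61, 92 and 42 in the input. In this window Clec9a, Ly6g and Lum held 0 Ser5 tags in both libraries and 15, 7 and 8 of input. Other markers went the other way: in each library 2 of 8 neutrophil markers and 1 of 8 T cell markers, Lck, had a peak there. The neutrophil markers Csf3r, Camp and S100a8 held 56, 21 and 30 tags in untreated cells and 65, 58 and 21 after LPS. Of the B cell and of the fibroblast markers 0 had a peak in this window.

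The promoter sequences of 5 genes are given because their Ser5-P pattern differs most: Cd40, Icosl and Cd274 carried the mark along the gene after LPS, Tnfsf9 carried it at its start in both libraries, and Cd86 has it at the upstream of its annotated starts. Each runs 5′ to 3′ on the strand of the gene, as 300 bases with 250 before the TSS (mm9), in lower case, with matches to 6 short motifs in capitals. The motifs are those of NF-kB (GGGANNTTC), the interferon response element (GAAANNGAA), STAT factors (TTCNNNGAA), AP-1 (TGANTCA), PU.1 (GAGGAA) and the TATA box (TATAAA), searched on both strands, and no 2 matches share a base.
Cd40, chr2:164880877-164881176, plus strand: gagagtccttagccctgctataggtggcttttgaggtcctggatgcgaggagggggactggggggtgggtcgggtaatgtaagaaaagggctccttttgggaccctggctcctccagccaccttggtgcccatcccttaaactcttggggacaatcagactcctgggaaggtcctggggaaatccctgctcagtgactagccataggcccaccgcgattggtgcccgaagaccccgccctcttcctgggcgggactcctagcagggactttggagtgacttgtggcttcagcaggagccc
Icosl, chr10:77531855-77532154, plus strand: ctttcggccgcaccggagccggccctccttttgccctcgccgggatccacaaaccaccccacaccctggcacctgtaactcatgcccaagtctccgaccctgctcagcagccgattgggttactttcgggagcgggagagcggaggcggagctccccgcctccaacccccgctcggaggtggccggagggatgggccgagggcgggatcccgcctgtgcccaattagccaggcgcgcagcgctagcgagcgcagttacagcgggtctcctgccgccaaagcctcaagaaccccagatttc
Cd274, chr19:29441695-29441994, plus strand: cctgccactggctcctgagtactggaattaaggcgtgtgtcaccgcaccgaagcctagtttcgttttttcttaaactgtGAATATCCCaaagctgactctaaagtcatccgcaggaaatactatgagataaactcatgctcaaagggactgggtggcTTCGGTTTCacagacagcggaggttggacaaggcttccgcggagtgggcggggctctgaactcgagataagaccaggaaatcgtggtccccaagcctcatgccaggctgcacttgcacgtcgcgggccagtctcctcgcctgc
Cd86, chr16:36666118-36666417, minus strand: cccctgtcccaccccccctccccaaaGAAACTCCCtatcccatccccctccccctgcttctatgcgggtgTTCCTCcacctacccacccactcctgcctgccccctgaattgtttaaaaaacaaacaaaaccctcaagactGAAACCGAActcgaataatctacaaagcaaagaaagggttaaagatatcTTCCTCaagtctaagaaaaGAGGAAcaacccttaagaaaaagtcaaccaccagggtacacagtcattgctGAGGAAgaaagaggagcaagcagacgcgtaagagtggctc
Tnfsf9, chr17:57244558-57244857, plus strand: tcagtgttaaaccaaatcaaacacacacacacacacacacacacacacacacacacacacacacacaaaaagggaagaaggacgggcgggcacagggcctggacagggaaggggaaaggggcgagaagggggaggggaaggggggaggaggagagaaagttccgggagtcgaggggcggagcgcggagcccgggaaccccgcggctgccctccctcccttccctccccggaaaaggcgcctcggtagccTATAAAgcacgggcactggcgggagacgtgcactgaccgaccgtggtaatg

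Cd40 and Icosl have 0 matches to any of the 6 motifs in this window. The letters are fixed, so close variants are not counted: the Cd40 window holds gggaaatcc, which differs from GGGANNTTC in 1 letter. In Cd274 the NF-kB letters start at -171 and the interferon response letters at -93, counted with the TSS as 0, both on the opposite strand. The upstream Cd86 start has the NF-kB letters at -224, the interferon response letters at -109 and 4 matches to the PU.1 letters. In Tnfsf9 the capitals mark TATAAA at -1, so that it overlaps the annotated start. Over the windows of all 8 genes at the start of the longest coding sequence, 1 held the NF-kB letters, 2 the interferon response letters, 0 the STAT letters, 1 the AP-1 letters, 2 the PU.1 letters and 2 the TATA letters. Of 22345 protein-coding promoters of the same length, 3.83%, 8.99%, 7.85%, 6.81%, 27.9% and 13.4% held them. A match describes letters and not a bound factor, and a lack of matches does not show that a binding site is absent.

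After LPS, Cd40, Cd274, Icosl and Cd83 had more Ser5-P Pol_II both at the start and along the gene, whereas Tnfsf9 had ratios near 1 and Pdcd1lg2 stayed below the input. In the TSS window (1 kb on each side of the start of the transcript with the longest coding sequence), 7 genes held at least 10 tags when the untreated and LPS counts were added. After LPS 6 of these 7 reached a ratio of 2 or more, called higher here, and 0 a ratio of 0.5 or less, called lower. Among all protein-coding genes with that many tags, 5.70% were higher by this rule and 14.0% lower. Over the gene body 5 of 8 were at least 2 times higher and 0 lower, against 5.83% and 11.3% of all such genes. The median ratio, LPS over untreated, was 3.10 over the 7 genes and 0.834 over the 12577 genes counted in the TSS window. For the gene body it was 3.18 over the 8 genes and 0.874 over 17386 genes. Scaling instead to the tags that lie in no Ser5 peak would multiply every ratio by 1.08, or add 0.11 on the log2 scale, and it changes neither count. Of the 6 genes, Cd86 was counted on 3 and 9 tags at a start with 15 of input, and the window at its upstream start, with 70 and 66 tags, had a ratio of 1.15.

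The body counts depend on how the input is treated. By all tags the untreated bodies of Cd86, Cd274 and Cd83 lay at 0.457 (0.383 to 0.543), 0.826 (0.664 to 1.03) and 0.715 (0.535 to 0.951) times the input. With input subtracted no ratio can be formed for them, and 2 of 8 genes, Cd40 and Icosl, remain at least 2 times higher. Of the tags 49.9% in the untreated, 46.3% in the LPS and 95.5% in the input library lay outside the Ser5 peaks. With all libraries scaled to those tags the values of the 3 genes became 0.874 (0.733 to 1.04), 1.58 (1.27 to 1.96) and 1.37 (1.02 to 1.82) times the input, and with input subtracted on that scale 4 of 8 genes were at least 2 times higher. Below, values over input are by all tags unless the scaling to tags outside the peaks is named.

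**Figure D1:**
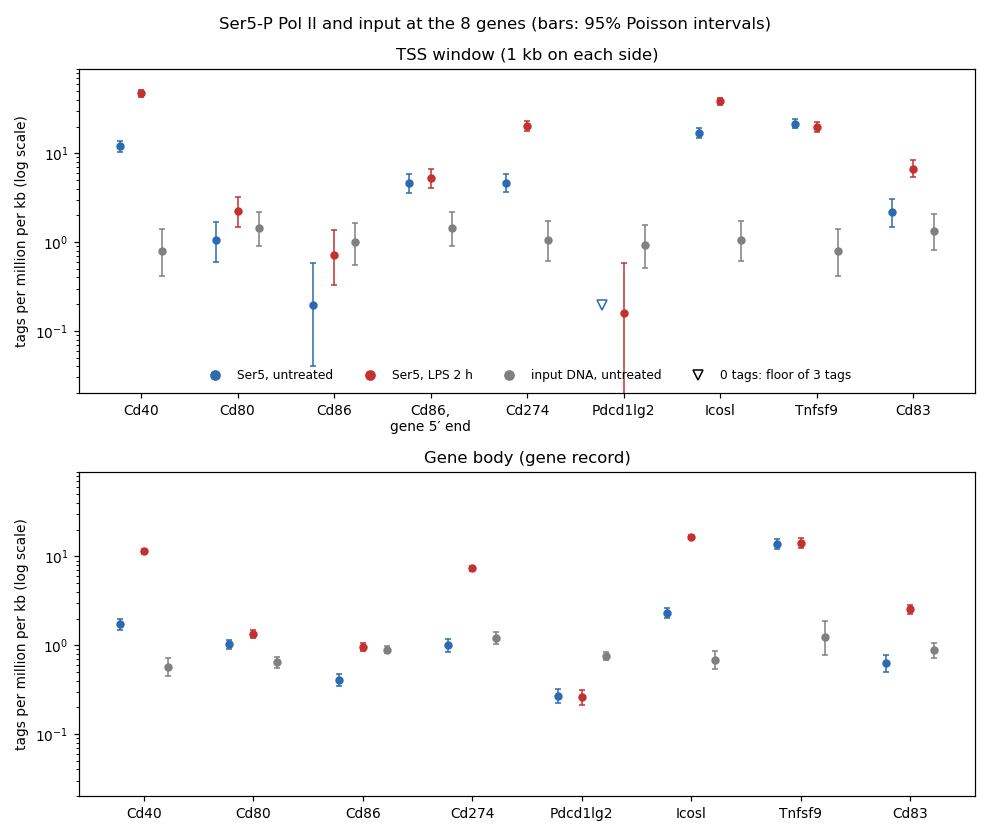
Ser5-P Pol_II and input DNA at the 8 genes, as TPM per kb on a log axis, in the TSS window (upper panel, with both starts of Cd86) and over the gene body (lower panel). Points are single libraries, bars are 95% Poisson intervals, and the triangle is the floor of 3 tags for the untreated Pdcd1lg2 window with 0 tags. The LPS points of Cd40, Cd274, Icosl and Cd83 stand above the untreated points in both panels, and the Tnfsf9 points overlap.

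A deposited Ser5 peak lay in the TSS window of 5 of 8 genes in untreated cells and of the same 5 after LPS: Cd40, Cd274, Icosl, Tnfsf9 and Cd83. Of all protein-coding genes 47.9% had one in untreated cells and 45.8% after LPS. With the start at the 5′ end of the gene record Cd86 joins them, for 6 of 8 in each library. A peak somewhere in the gene body was found in 8 of 8 genes in untreated cells and 7 of 8 after LPS, against 53.3% and 50.6% of all genes. The windows of the 5 genes with a peak had 54.3% to 68.7% G and C, and those of Cd80, Cd86 and Pdcd1lg2 had 45% to 46%. The upstream start of Cd86, which has a peak, had 49.3%. The median of all promoters was 55.7%, and no test was made of that difference.

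Cd40, the receptor through which T helper cells activate macrophages, lies on the plus strand at chr2:164881127-164898448. Its TSS window held 182 tags in untreated cells, 592 after LPS and 12 in the input. The densities were 11.9 (10.3 to 13.8), 47.3 (43.6 to 51.3) and 0.796 (0.411 to 1.39) TPM per kb, so the mark stood far above input before LPS and was 3.96 times (3.35 to 4.71) higher after it. Downstream of the window, from 1 kb past the start to the end of the gene, the tags numbered 90, 774 and 68. There the untreated level was 1.31 times (0.945 to 1.82) the input and the LPS level 13.7 times (10.7 to 17.8). Downstream, LPS exceeded untreated by 10.5 times (8.42 to 13.2). The downstream ratio was 2.64 times that of the TSS window (1.99 to 3.52), a comparison within libraries in which the scaling cancels.

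The peaks at Cd40 show the same spread. In untreated cells there was 1 peak in the gene, from 164880875 to 164881602 over exon 1, covering 2.75% of the gene. After LPS 16 peaks covered 77.5% of it, 15 of them with no untreated counterpart, and they crossed exons 1 to 9 and the introns between. Cut into 3 equal segments from 5′ to 3′, the gene had ratios of 4.94 (4.15 to 5.90), 10.9 (7.50 to 16.3) and 10.6 (7.42 to 15.4). The 5 kb past its end held 19 and 126 tags, a ratio of 8.08 (4.97 to 13.9), so the higher level did not stop at the annotated end. The nearest coding gene upstream, Ncoa5, had 103 and 110 tags in its TSS window, a ratio of 1.30 (0.986 to 1.72).

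The study also assayed Cd40 by ChIP with a primer pair, sense cttgttgacagcggtgagtg and antisense agcccacctcatttgtgtgt. An exact match places its amplicon of 195 bp at chr2:164881246-164881440, from 119 to 313 bp past the TSS and inside the peaks of both libraries. The 500 bp around its centre held 146 tags in untreated cells, 447 after LPS and 0 of input, a ratio of 3.73 (3.09 to 4.53). In the paper the ChIP at Cd40 was of Pol_II recruitment, which actinomycin D did not inhibit at this gene. That is another measure and question than the Ser5-P tag counts above. An amplicon here reads the start of the gene, where the ratio was lower than downstream.

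Icosl, the ligand that sustains activated and follicular helper T cells through Icos, lies on the plus strand at chr10:77532105-77546000. Its TSS window held 257 tags in untreated cells, 481 after LPS and 16 in the input, or 16.9 (14.9 to 19.1), 38.5 (35.1 to 42.1) and 1.06 (0.607 to 1.72) TPM per kb. The ratio of 2.28 (1.96 to 2.66) was the lowest of the genes with peaks that were at least 2 times higher, and the untreated level was the second highest of the 8 genes. The part of the window before the TSS had 166 and 210 tags, a ratio of 1.54 (1.25 to 1.90). The part after the TSS had 91 and 271, a ratio of 3.63 (2.85 to 4.65).

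Downstream of the window Icosl held 152, 1152 and 64 tags. The untreated level was already 2.35 times (1.74 to 3.20) the input, and that after LPS 9.24 times (7.79 to 11) the untreated. The downstream ratio exceeded that of the TSS window by 4.05 times (3.21 to 5.12), the largest value of the 8 genes. From 5′ to 3′ the ratios of the 3 segments were 4.75 (3.92 to 5.79), 9.19 (6.96 to 12.3) and 10.9 (8.21 to 14.8). In the 5 kb past the gene the ratio was 4.14 (2.49 to 7.20).

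In Icosl 7 peaks covered 87.7% of the gene after LPS, against 2 peaks and 5.74% in untreated cells. The second untreated peak, from 77542208 to 77542544 in an intron, held 14 tags before and 63 after LPS. After LPS it lay inside a peak of 4089 bp from 77539568 to 77543656, which held 74, 630 and 31 tags and reached exon 6. Outside the gene, a peak from 77517394 to 77517684, inside the neighbour Dnmt3l and within 1 kb of one of its annotated starts, held 18 and 34 tags and 0 of input, a ratio of 2.30 (1.26 to 4.33), and it was called in both libraries. At the start of its longest coding sequence Dnmt3l held 0 tags in both libraries, and Aire, the other neighbour, held 0 and 12, with 14 of input.

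**Figure D2:**
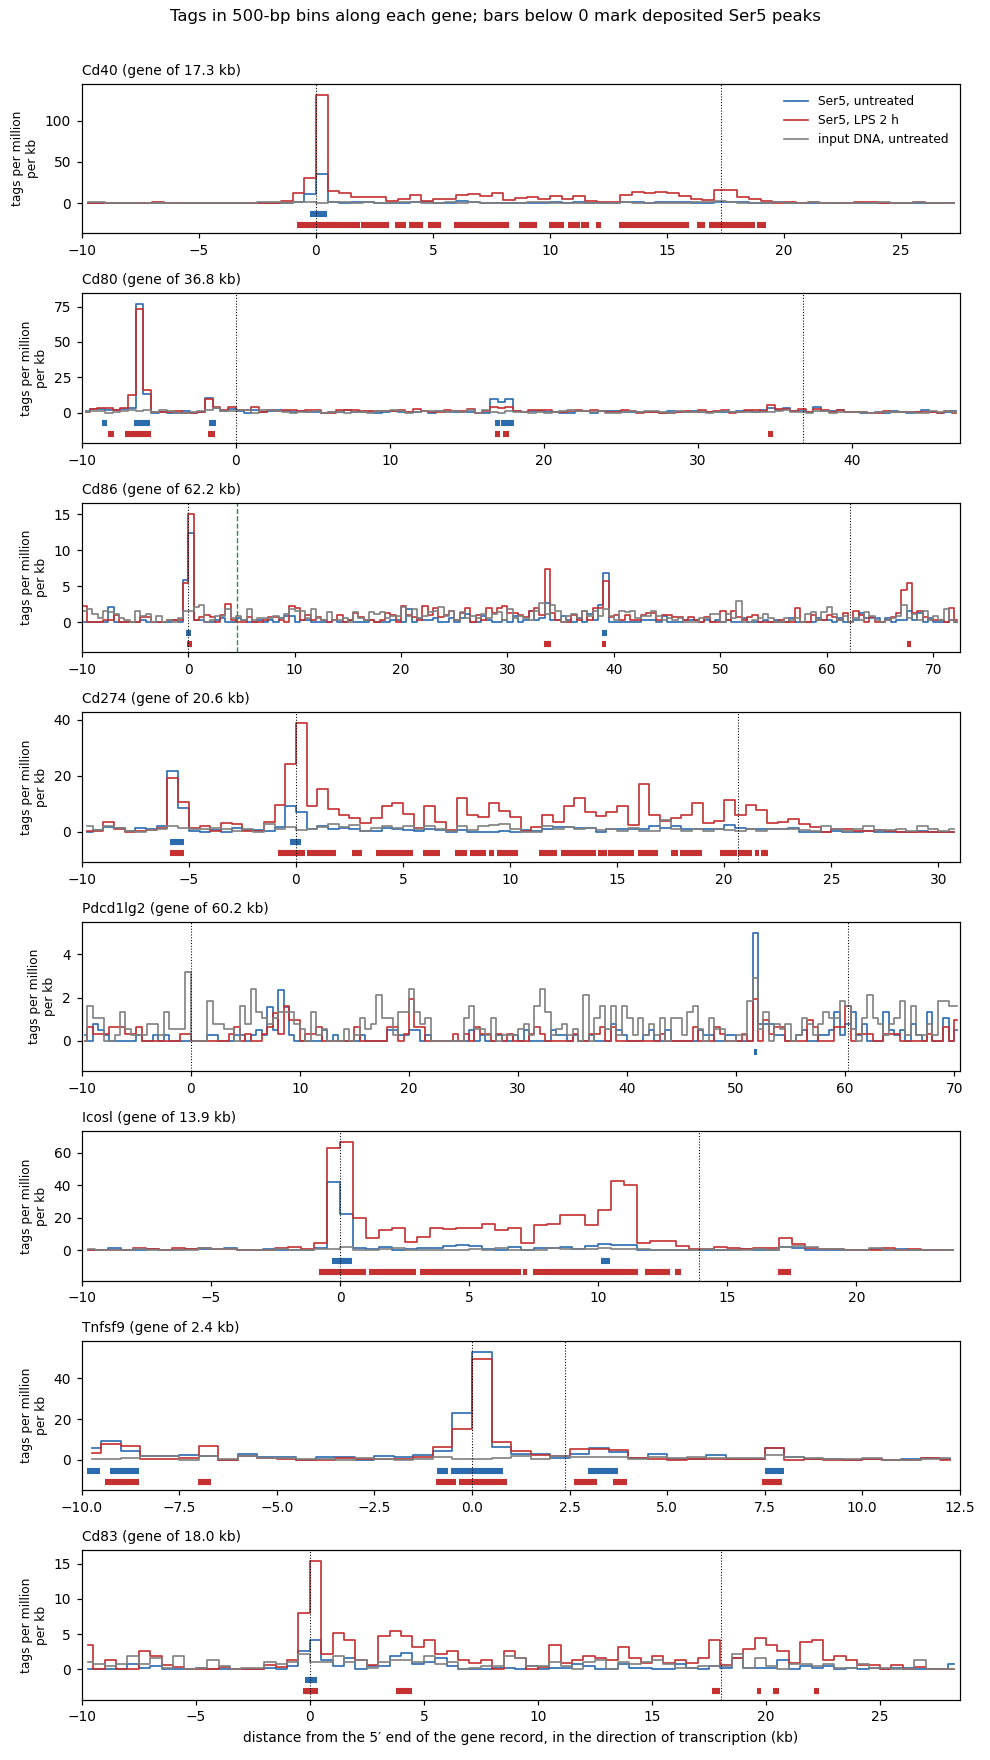
TPM per kb in bins of 500 bp along the 8 genes, against the distance in kb from the 5′ end of each gene record, with dotted lines at the ends of the gene. Bars below 0 mark the deposited peaks (blue untreated, red LPS), and the dashed green line is the Cd86 start with the longest coding sequence. After LPS the signal runs through Cd40, Cd274 and Icosl. In untreated cells the signal along these genes is highest at their start, with a lower signal and an intronic peak along Icosl. A higher untreated signal before Cd274, 21.5 TPM per kb at -6000 bp, lies near a start of 5033414D02Rik.

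Cd274 (PD-L1), which restrains T cells through Pdcd1, lies on the plus strand at chr19:29441945-29462585. Its TSS window held 71, 255 and 16 tags in the untreated, LPS and input libraries, or 4.66 (3.64 to 5.88), 20.4 (18.0 to 23.1) and 1.06 (0.607 to 1.72) TPM per kb. LPS exceeded untreated by 4.38 times (3.35 to 5.78), close to that of Cd40 and with an interval that overlaps it. The gene starts back to back with 5033414D02Rik, whose 5′ end lies 65 bp away on the minus strand, so this window holds the start of both. Of its 2 sides, the one towards Cd274 had 30 and 150 tags, a ratio of 6.09 (4.10 to 9.35), and the other 41 and 105 tags, a ratio of 3.12 (2.16 to 4.59). The start of the longest coding sequence of 5033414D02Rik had 123 and 101 tags, a ratio of 1.00 (0.761 to 1.31).

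Along the rest of Cd274 the tags numbered 127 in untreated cells, 801 after LPS and 182 in the input. The untreated level was 0.690 times (0.546 to 0.870) the input by all tags and 1.32 times (1.04 to 1.67) with each library scaled to its tags outside the peaks, so whether it stood above input depended on the scaling. After LPS it was 5.30 or 10.9 times the input by those scalings. The downstream ratio was 7.69 (6.37 to 9.34), higher than that of the TSS window by 1.76 times (1.25 to 2.45). After LPS 17 peaks covered 70.5% of the gene, against 1 peak and 1.14% in untreated cells. From 5′ to 3′ the segments had ratios of 7.31 (5.63 to 9.62), 10.6 (7.28 to 16.1) and 5.83 (4.40 to 7.83), and the 5 kb past the gene 6.20 (3.98 to 10.0).

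Pdcd1lg2 (PD-L2), the other ligand of Pdcd1, starts 43464 bp further along the same strand, at chr19:29485409-29545647, and shared none of this. Its TSS window held 0 tags in untreated cells, 2 after LPS and 14 in the input. No ratio is given, since both Ser5 counts are under the floor of 3 tags, which at this depth equals 0.197 TPM per kb in untreated cells. The upper limit of the interval for 0 tags there is 0.242 TPM per kb. The gene body held 123, 98 and 346 tags, with a ratio of 0.971 (0.737 to 1.28). Its level was 0.352 and 0.341 times the input in the 2 Ser5 libraries by all tags, and 0.673 (0.543 to 0.829) and 0.703 (0.556 to 0.882) times on the scale of tags outside peaks. The 1 peak in the gene, from 29537000 to 29537290 in untreated cells, had 19 tags before and 6 after LPS. Repeated sequence limits what can be seen at this start, where 29.4% of the 30-base words have more than 1 copy in the genome. The side of the window after the TSS held 0 tags in all 3 libraries, input included.

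Cd83, a marker of mature antigen-presenting cells, lies on the plus strand at chr13:43880476-43898499. Its TSS window held 33, 84 and 20 tags, or 2.17 (1.49 to 3.04), 6.72 (5.36 to 8.32) and 1.33 (0.810 to 2.05) TPM per kb, far less than at Cd40 or Icosl. LPS exceeded untreated by 3.10 times (2.05 to 4.79), and the untreated level was 1.63 times (0.909 to 3.0) the input. With input subtracted the ratio at this start became 6.43 by all tags and 4.44 on the scale of tags outside peaks. Downstream there were 65, 230 and 111 tags, a ratio of 4.31 (3.26 to 5.77), and the downstream and start ratios differed by 1.39 times with an interval of 0.823 to 2.32 that includes 1. The untreated level there was 0.579 times (0.420 to 0.794) the input, or 1.11 times (0.803 to 1.52) on the scale of tags outside peaks. Untreated cells had 1 peak at the start, with 25 tags before and 61 after LPS, and after LPS 3 peaks covered 7.67% of the gene. The segments had ratios of 3.30 (2.45 to 4.49), 5.54 (2.85 to 11.8) and 6.28 (3.44 to 12.4) from 5′ to 3′, with intervals that overlap.

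Tnfsf9, the ligand of Tnfrsf9 on activated T cells, is the shortest of the 8 genes, 2373 bp on the plus strand at chr17:57244808-57247180. Its TSS window held 330 tags in untreated cells, 250 after LPS and 12 in the input, or 21.7 (19.4 to 24.1), 20.0 (17.6 to 22.6) and 0.796 (0.411 to 1.39) TPM per kb. The untreated level was the highest of the 8 genes, ahead of Icosl. The LPS level was 0.923 (0.780 to 1.09) times the untreated in the window and 1.02 (0.842 to 1.22) times over the gene, and both intervals lie below 2. Nearly all of the signal lay at the 5′ end: the segments held 222, 16 and 14 tags in untreated cells and 178, 18 and 14 after LPS. The peaks at the start, from 57244276 to 57245600 in untreated cells and from 57244479 to 57245710 after LPS, also cover the start of Gm11110 on the minus strand. That gene overlaps Tnfsf9 by 558 bp and its TSS lies 557 bp away, so the tags of both cannot be told apart.

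Cd80 and Cd86, the classical ligands of Cd28 and Ctla4, had little Ser5-P Pol_II at the starts of their longest coding sequences. The upstream start of Cd86, described below, had a peak in both libraries. Cd80 lies on the plus strand at chr16:38459013-38495821. The TSS window at 38459193 held 16 tags in untreated cells, 28 after LPS and 22 in the input, or 1.05 (0.600 to 1.70), 2.24 (1.49 to 3.24) and 1.46 (0.915 to 2.21) TPM per kb. The ratio was 2.13 (1.11 to 4.22), no peak was called there in either library, and the level after LPS was 1.53 times (0.846 to 2.81) the input by all tags and 3.16 times (1.74 to 5.79) on the scale of tags outside peaks. The ratio depended on the window, with 1.62 for 500 bp and 1.48 for 2000 bp on each side, and became 5.74 with input subtracted on the scale of tags outside peaks.

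The strongest Ser5 signal inside Cd80 was intronic, and it was lower after LPS. A pair of peaks called in both libraries lies from 16622 to 17860 bp past the start. The first, from 38475815 to 38476179 in untreated cells, held 47 tags before LPS, 19 after it and 0 of input, a ratio of 0.493 (0.273 to 0.856). The second, from 38476249 to 38477053, held 54, 16 and 4, a ratio of 0.361 (0.193 to 0.640). Around them the gene went the other way: the 5′ segment held 62 and 110 tags, a ratio of 2.16 (1.57 to 3.0), the middle segment with the peaks 146 and 111, a ratio of 0.927 (0.717 to 1.19), and the 3′ segment 81 and 88, a ratio of 1.32 (0.968 to 1.81). The sum over the gene, 289 and 309 tags with a ratio of 1.30 (1.11 to 1.54), therefore joins parts with different directions.

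The centre of the first intronic peak, 300 bases on the plus strand with a match to the PU.1 letters in capitals, is given because no annotated start lies in it.
Cd80 intronic peak, chr16:38475847-38476146: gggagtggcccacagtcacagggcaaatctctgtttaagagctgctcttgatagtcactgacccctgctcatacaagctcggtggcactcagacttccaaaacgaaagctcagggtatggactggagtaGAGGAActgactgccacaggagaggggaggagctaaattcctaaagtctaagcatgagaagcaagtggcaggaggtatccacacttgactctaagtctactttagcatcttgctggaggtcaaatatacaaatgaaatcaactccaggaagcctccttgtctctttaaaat
The PU.1 letters occur 1 time in it and the other motifs 0 times. Of 36058 untreated Ser5 peaks that lie over 1 kb from protein-coding starts, 31.6% held the PU.1 letters in the same window. Upstream of Cd80 a peak from 38457260 to 38457720 with no annotated gene held 44 and 38 tags, a ratio of 1.05 (0.664 to 1.66). The strong peak beyond it belongs to the starts of Adprh and D930030I03Rik, with 346 and 292 tags.

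Cd86 lies on the minus strand at chr16:36603955-36666167. Its coding starts are at 36661538 (transcript Cd86-201, the longest coding sequence), at 36666163 (Cd86-001), near the 5′ end of the gene record, and at 36642891 (Cd86-003). The window at the first held 3, 9 and 15 tags, a ratio of 3.66 with an interval of 0.912 to 21.0, and it had no peak. The window of Cd86-003 held 3, 16 and 21 tags, a ratio of 6.50 (1.86 to 34.8). The window at the 5′ end of the record held 70, 66 and 22 tags, or 4.59 (3.58 to 5.80), 5.28 (4.08 to 6.71) and 1.46 (0.915 to 2.21) TPM per kb. That start had a peak in both libraries, stood 3.15 times (1.93 to 5.34) above input in untreated cells, and had a ratio of 1.15 (0.808 to 1.63).

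Downstream of this upstream Cd86 start the tags numbered 145 in untreated cells, 321 after LPS and 404 in the input, a ratio of 2.70 (2.21 to 3.31). This exceeded the ratio at the start by 2.35 times (1.56 to 3.53). The level after LPS was low: over the gene body it was 0.949 TPM per kb (0.855 to 1.05), against 0.407 (0.352 to 0.469) in untreated cells and 0.892 (0.808 to 0.982) in the input. It was 1.06 times (0.923 to 1.23) the input by all tags and 2.19 times (1.90 to 2.53) on the scale of tags outside peaks. An intronic peak from 36626840 to 36627271 was called in both libraries, with 35 and 22 tags and a ratio of 0.766 (0.428 to 1.34). Another, from 36632117 to 36632714, was called after LPS only, with 10 and 24 tags.

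The genes thus differed in where the LPS difference lay. Of the 7 genes with at least 10 tags in each region, the downstream ratio was at least 2 times the TSS-window ratio in 2, Cd40 and Icosl, against 8.18% of 11645 protein-coding genes. The interval lay above 1 in 3, these and Cd274. With its upstream start Cd86 would be a further gene past that size. The median over the 7 genes was 1.42, and that over all genes counted was 1.05. Cd80 had the lowest value, 0.595 (0.294 to 1.17). In order of their level in the TSS window after LPS, Cd40 stood first and Icosl second, with intervals that do not overlap. Cd274 and Tnfsf9 followed, with intervals that do overlap, and then Cd83 and the upstream start of Cd86, which overlap too. Cd80, the Cd86 start with the longest coding sequence and Pdcd1lg2 came last.

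**Figure D3:**
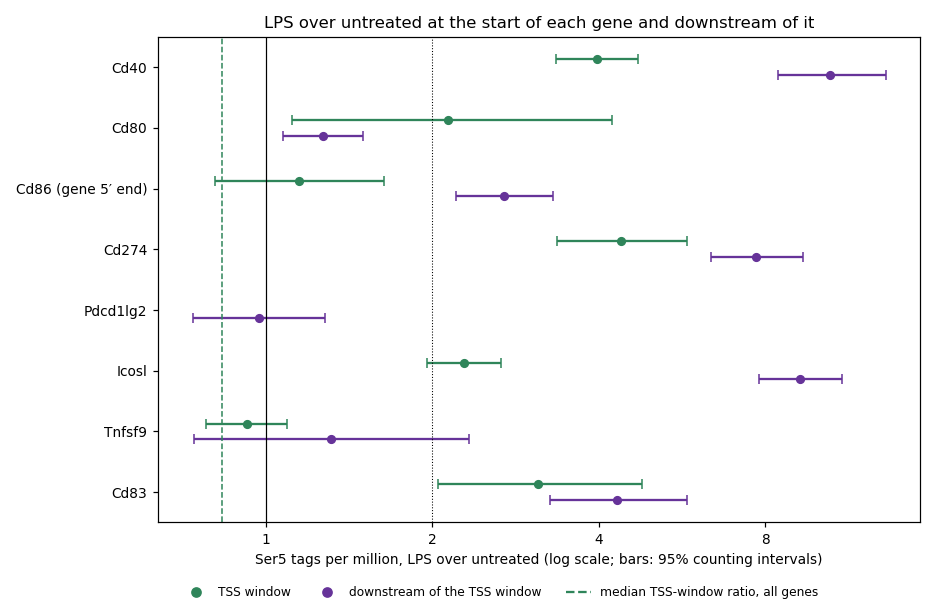
Ratio of LPS to untreated in Ser5 TPM, on a log axis, in the TSS window and downstream of it for each gene (Cd86 from the 5′ end of its record), with 95% counting intervals. The dashed line is the median TSS-window ratio of all genes, 0.834, and Pdcd1lg2 has no TSS-window value. The downstream points of Cd40, Icosl, Cd274 and Cd86 lie to the right of their TSS-window points, and the intervals do not overlap.

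**Figure D4:**
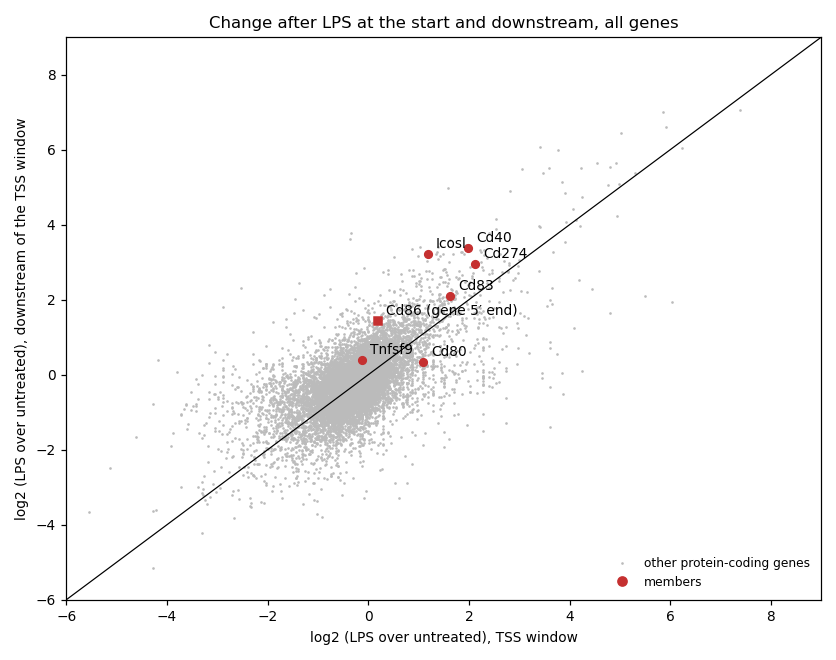
The log2 ratio of LPS to untreated downstream of the TSS window against that in the window, for protein-coding genes with at least 10 tags in each region and tags in both libraries (grey) and for the members (red). On the line both ratios are equal. Icosl and Cd40 lie above the line by 4.05 and 2.64 times.

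For each gene the protein-coding gene with the most similar levels was looked for among 10287 genes with at least 50 tags in the TSS window. Likeness was the distance over 6 values, log2 of TPM per kb plus 0.1 in the TSS window and gene body of the 3 libraries. For Icosl it was Birc3, a ubiquitin ligase that acts in Cd40 signalling, at a distance of 0.671, with 199 and 481 tags in the window and a body ratio of 4.40. For Cd274 it was the complement gene C3 (0.859, body ratio 5.48), for Cd40 Mtmr14 (0.887, body ratio 4.83), for Cd83 Gpr18 (0.493) and for Tnfsf9 Ppp1ca (0.477). The body ratios of Icosl, Cd274 and Cd40 were 7.14 (6.22 to 8.21), 7.38 (6.23 to 8.80) and 6.61 (5.74 to 7.65), each above that of its match. Cd80, Cd86 and Pdcd1lg2 themselves had fewer than 50 tags in that window, which in itself sets them apart from the candidates. The nearest genes above that limit were Trim69 at 0.887, Arg2 at 2.72 and Cd28 at 5.09. For Cd86 the start of the longest coding sequence was used, with 3 and 9 tags. Its upstream start, with 70 and 66 tags, would pass the limit and was not matched.

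Related ligands and the partners of these genes were read in the same way in the TSS window, by lists drawn up by name. The counts over the gene body are given beside them. Of 9 other costimulatory and checkpoint ligands with enough tags, outside the TNF ligand family, 2 were at least 2 times higher and 2 lower, with a median ratio of 0.879. They are mostly of the immunoglobulin type, but Tnfrsf14, Lgals9 and Cd24a are not, so that of the higher pair Vtcn1 alone is of that type. Tnfrsf14, the ligand of Btla, had 99 and 200 tags (ratio 2.46, 1.93 to 3.17) and Vtcn1 3 and 7 tags with an interval of 0.649 to 17.0. Lgals9, a ligand of Havcr2, had 169 and 244 tags, a ratio of 1.76. The smallest ratios were those of 4632428N05Rik, which encodes the checkpoint protein VISTA, on 162 and 48 tags (0.361, 0.256 to 0.501), Cd276 on 26 and 10 (0.469, 0.202 to 1.00) and Cd24a on 21 and 12. Over the gene body 3 of 11 of these ligands were at least 2 times higher and 1 lower, with a median of 0.862. The Lgals9 body held 485 and 1002 tags, a ratio of 2.52 (2.26 to 2.81), with 4 peaks before and 20 after LPS.

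Of 12 other TNF family ligands 3 were higher by that size and 3 lower, with a median of 1.03. Tnfsf15 had 8 and 70 tags (10.7, 5.12 to 25.7), Tnf 1352 and 6465 (5.83, 5.50 to 6.18) and Tnfsf10, the TRAIL ligand, 31 and 82 (3.22, 2.11 to 5.04). Tnfsf13 had 179 and 46 (0.313, 0.221 to 0.435), Tnfsf12 304 and 100 (0.401, 0.317 to 0.504) and Lta 10 and 3 with an interval of 0.0647 to 1.42, although over the Lta body the tags were 16 and 35. The neighbours of Tnfsf9, Cd70 with a start 44392 bp away and Tnfsf14, are its relatives, and neither passed that size: Cd70 held 7 and 4 tags and Tnfsf14 48 and 51, a ratio of 1.29 (0.856 to 1.96). Over the gene body 5 of 15 of the other TNF family ligands were higher and 2 lower, with a median of 1.02. The Tnfsf15 body held 30 and 400 tags, a ratio of 16.2 (11.2 to 24.4), with 0 peaks before and 12 after LPS.

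Of 14 genes of Cd40 signalling 5 were at least 2 times higher and 0 lower in the TSS window, with a median of 1.80, and over the gene body 7 were higher and 1 lower. The largest ratios were those of Birc2 on 6 and 21 tags (4.27, 1.67 to 12.9), Tank on 54 and 164 (3.70, 2.71 to 5.13) and the adaptor Traf1 on 128 and 377 (3.59, 2.93 to 4.42). The smallest were those of the kinase Map3k14 (0.687, 0.553 to 0.851), Traf3 (0.696, 0.533 to 0.905) and Traf5 (0.714, 0.530 to 0.957), adaptors of the same receptor. Of the receptors and ligands that T cells carry for these genes and for the related ligands, 5 had enough tags, and 0 were higher and 3 lower by that size. Cd28, the single one of the 5 that binds a product of the 8 genes, had 44 and 6 tags (0.166, 0.0579 to 0.391) and a peak in untreated cells only, Havcr2 40 and 10 (0.305, 0.136 to 0.620) and Tnfrsf18 12 and 1 (0.102, 0.00238 to 0.686). Tnfrsf4, with 45 and 48 tags, and Cd27, with 21 and 17, passed neither size. Over the gene body 0 of the 11 receptors and ligands in this list were higher and 2 lower.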

How the data were processed

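The authors sequenced reads of 76 bases, trimmed their 3′ part, mapped them with Bowtie on mm9 (version not given in the sources used here), kept unique matches with at most 2 mismatches for the Ser5 libraries, and deposited the position of each tag, 1 line a tag, duplicates included. The deposited peaks were called by the authors with MACS, separately for each Ser5 library with the input as control and a p-value of 1e-05 as the limit, and the peak score deposited with them is -10 times the log10 of that p-value. No library was pooled.

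From these files the 5′ ends of the tags were counted in 3 libraries of 7616771, 6249819 and 7533308 tags on chromosomes 1 to 19 and X, 81.4% to 84.5% of them at distinct positions. Sequencing copies of 1 molecule cannot be told from separate molecules, so the intervals cover counting error only. Intervals are exact Poisson for levels, exact conditional on the sum for ratios, and exact conditional for the downstream over TSS-window comparison. With 1 library a condition, a gene is called higher or lower at a ratio of at least 2 or at most 0.5 if the 2 Ser5 counts add up to 10 tags or more. A peak counts in a region if it shares 1 bp with it. A count of 0 is read against a floor of 3 tags.

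The 8 genes and the other lists were chosen by name with earlier results of these data known. All 8 are described. Of each other list the text names up to 3 genes with the largest and 3 with the smallest TSS-window ratio and any near a member, and for each member the gene with the most similar levels. Promoter and peak sequences are from the mm9 genome. The counting, the intervals and the size rule were tested on simulated data. Python 3.11.15, numpy 2.4.6, scipy 1.17.1, numba 0.67.0 and matplotlib 3.10.9 were used. A text file that describes the deposited columns was not used.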

Additional observations from a re-analysis of the deposited data

How the results depend on the processing

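No paired analysis was possible because each condition has 1 library, and for the same reason no replicate could be left out. The settings tried were tags moved 75 bp downstream, duplicates counted 1 time, scaling to tags outside the peaks, input subtraction, tags with unique first 30 bases, TSS windows of 500 and 2000 bp on each side, the 5′ end of the gene record as TSS, the body from 1000 bp past the TSS, peaks with p of at most 1e-10 and peak midpoints. Input subtraction on the scale of tags outside the peaks, the record start for peaks and the settings of the downstream comparison were added after seeing the data. No direction of a called value reversed. In the TSS window the number of genes at least 2 times higher was 6, between 4 and 6 over the settings, and the number lower was 0 in each. Over the gene body it was 5 and fell to 2 with input subtracted, since the untreated bodies of Cd86, Cd274 and Cd83 do not exceed the input by all tags, and was 4 with input subtracted on the scale of tags outside the peaks. Counts of genes with peaks moved by at most 1. Of 109 ratios of LPS to untreated under other settings 14 moved beyond their counting interval. In the TSS window they were Cd40 at 3.23 without duplicates, Cd83 at 6.43 with input subtracted, and Cd80 at 5.74 with input subtracted on the scale of tags outside the peaks. Over the body, input subtraction gave 9.37 for Cd40, 1.80 for Cd80 and 9.76 for Icosl, and on the scale of tags outside the peaks 8.40, 1.60 and 8.92, with 19.9 for Cd274 and 13.5 for Cd83. The body from 1000 bp past the TSS gave 10.5 for Cd40, 9.24 for Icosl and 1.31 for Tnfsf9. Of 64 values of Ser5 over input 9 moved, each with scaling to tags outside the peaks. At Pdcd1lg2 and at the Cd86 start with the longest coding sequence, depth limits what can be read.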
